A study of Mus musculus with 2 samples.

Results

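The genes described here are 9 matrix proteases and protease inhibitors of 53380 features in the count tables. They were taken by name, with no threshold on a value: the membrane-type matrix metalloproteinases Mmp14 and Mmp15, the tissue inhibitors of metalloproteinases Timp1, Timp2, Timp3 and Timp4, the plasminogen activators Plat and Plau, and the secreted metalloproteinase Adamts1. They were measured as unique molecular identifiers (UMIs, single RNA molecules counted once) in single endothelial cells of the adult mouse sciatic nerve. Cells carried a Cdh5(PAC)-CreERT2 driver and the Cre-dependent R26-TomatoLSL reporter, which marks endothelial cells red once the Cre is active, and both conditions shared this genotype. One library, called intact, came from pooled uninjured nerves, and the other, called injured, from the bridge region of injured nerves 7 days post injury. Both were digested with trypsin, collagenase and other enzymes for 30 min and sorted as tdTomato-positive, CD45-negative cells.

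New vessels cross a wound by cutting through the basement membrane and the matrix around it. MMP14 sits in the cell membrane, cleaves fibrillar collagen and activates pro-MMP2, a step in which TIMP2 acts as the adaptor. TIMPs block the active site of metalloproteinases, TIMP3 stays bound to the matrix and also blocks ADAM and ADAMTS enzymes, and tissue-type (Plat) and urokinase-type (Plau) activators turn plasminogen into plasmin.

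With 1 library of pooled animals per condition there were no replicates and no test was made. Injury can therefore not be told apart from the animals, the part of the nerve sampled, the sort, the digestion or the sequencing run. In this text, after injury means in the injured library. All intervals are exact 95% intervals and cover counting error only. The authors' table gave a class to 2301 cells, in 10 classes of which 9 are named as endothelial (EC_). Barcodes shared by the libraries numbered 298, and a cell whose barcode had at least 5 times more UMIs in the other library was left out, which removed 100 intact and 48 injured endothelial cells. This left 718 intact cells with 4542225 UMIs and 1274 injured cells with 19989024 UMIs, at medians of 4461 and 11684 UMIs per cell. The 8 pan-endothelial markers, Cdh5 and Pecam1 among them, summed to 5358 and 4877 CPM (a gene's UMIs scaled to a common total per library) in these cells, and all 8 were present. Ptprc, which encodes CD45, was at 0 UMIs in both, which allows up to 0.660 and 0.150 CPM.

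Promoter sequences are shown for the members that differed most between the libraries, Mmp14 and Timp1, which were higher after injury, and Timp3 and Timp4, which were lower. Each is the 250 bases before the RefSeq transcription start on GRCm38.p6, 5′ to 3′ on the gene's own strand, at chr14:54431348-54431597 (plus strand), chrX:20869916-20870165 (plus), chr10:86300162-86300411 (plus) and chr6:115252206-115252455 (minus). Capitals mark the GC box GGGCGG and the core hypoxia response motif ACGTG, read on both strands.
Mmp14: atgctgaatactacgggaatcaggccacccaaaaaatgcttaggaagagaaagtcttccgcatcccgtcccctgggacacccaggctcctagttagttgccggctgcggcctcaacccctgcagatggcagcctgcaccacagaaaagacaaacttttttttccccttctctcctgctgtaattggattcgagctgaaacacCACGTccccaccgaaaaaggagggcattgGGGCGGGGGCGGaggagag
Timp1: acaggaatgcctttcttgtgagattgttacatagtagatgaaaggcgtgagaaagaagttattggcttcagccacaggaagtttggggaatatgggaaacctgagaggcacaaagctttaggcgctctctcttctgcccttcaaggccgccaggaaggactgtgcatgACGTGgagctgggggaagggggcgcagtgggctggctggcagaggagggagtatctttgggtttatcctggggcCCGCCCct
Timp3: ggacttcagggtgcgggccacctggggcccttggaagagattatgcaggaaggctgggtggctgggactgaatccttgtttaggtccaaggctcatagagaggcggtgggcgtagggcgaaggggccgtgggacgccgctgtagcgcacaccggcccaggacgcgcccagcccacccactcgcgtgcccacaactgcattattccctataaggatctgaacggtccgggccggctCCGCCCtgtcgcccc
Timp4: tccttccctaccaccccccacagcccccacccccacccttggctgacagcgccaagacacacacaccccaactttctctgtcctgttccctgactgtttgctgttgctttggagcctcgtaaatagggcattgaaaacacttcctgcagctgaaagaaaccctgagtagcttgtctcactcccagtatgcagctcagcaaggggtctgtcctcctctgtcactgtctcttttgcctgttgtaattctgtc

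In the Mmp14 window, 2 GC boxes began 19 and 13 bases before the start and an ACGTG lay on the opposite strand 48 bases before it. The Timp1 window held a GC box on the opposite strand at 8 bases and an ACGTG at 82 bases before the start, the Timp3 window a GC box on the opposite strand at 15 bases, and the Timp4 window none of the motifs searched. Among all 32851 promoter windows of this length, 32.7% held GGGCGG and 16.6% held ACGTG. The AP-1 motifs TGANTCA and TGAGTAA, present in 6.75% and 2.25% of windows, were found in none of the 7 members with an entry. TATAAA, present in 12.4% of windows, was found only in Adamts1, 32 bases before its start. GC boxes also lay in the windows of Mmp15 and Timp2, with 1 each, and of Adamts1, with 3. A match describes letters in a window and says nothing of a factor bound there.

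Genome positions are given on GRCm38 from an annotation that held all 9 members under the same versioned identifiers as the count tables. Mmp14 lies at chr14:54431612-54445364 and Mmp15 at chr8:95352268-95375080, both on the plus strand. Timp1 (chrX:20870166-20874735, plus), Timp3 (chr10:86300372-86349506, plus) and Timp4 (chr6:115241892-115252205, minus) each lie inside a synapsin gene, Syn1, Syn3 and Syn2, on the strand opposite to it. Syn1 had 0 UMIs in both libraries, Syn3 had 0 and 2, and Syn2 had 26 and 96, so the synapsins had few UMIs beside Timp1 and Timp3, while Syn2 had more than the 69 of Timp4 in the injured library. Whether strand was used in counting is not stated in the sources at hand. Timp2 lies at chr11:118301069-118355740 (minus) and overlaps Cep295nl, which had 14 and 17 UMIs, on the same strand. Plat is at chr8:22757727-22782844 (plus), Plau at chr14:20836660-20843385 (plus) and Adamts1 at chr16:85793827-85803113 (minus). This annotation and RefSeq place some starts apart. The Timp3 promoter window, which ends at 86300411, runs past the gene start given here, 86300372, and its GC box lies inside the gene. The windows of Mmp15 and Timp2 also overlap their genes as placed here.

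In endothelial cells pooled over classes, the injured library held more Mmp14 and Timp1 and less Timp3, Timp4 and Plat than the intact one. A gene was called higher or lower when its CPM, with 5 CPM added to both sides, differed at least 2-fold, and it was measured when its mean was at least 10 CPM. By this rule 2 members were higher and 3 lower, 3 lay between and Plau was not measured, against 4.79% of all measured genes that were higher and 6.82% that were lower. The median log2 ratio of the 8 measured members was -0.63, and that of all 8267 measured genes was 0.04. The members were chosen with earlier results of these data known, so their counts, here and within classes, are a description.

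**Figure D1:**
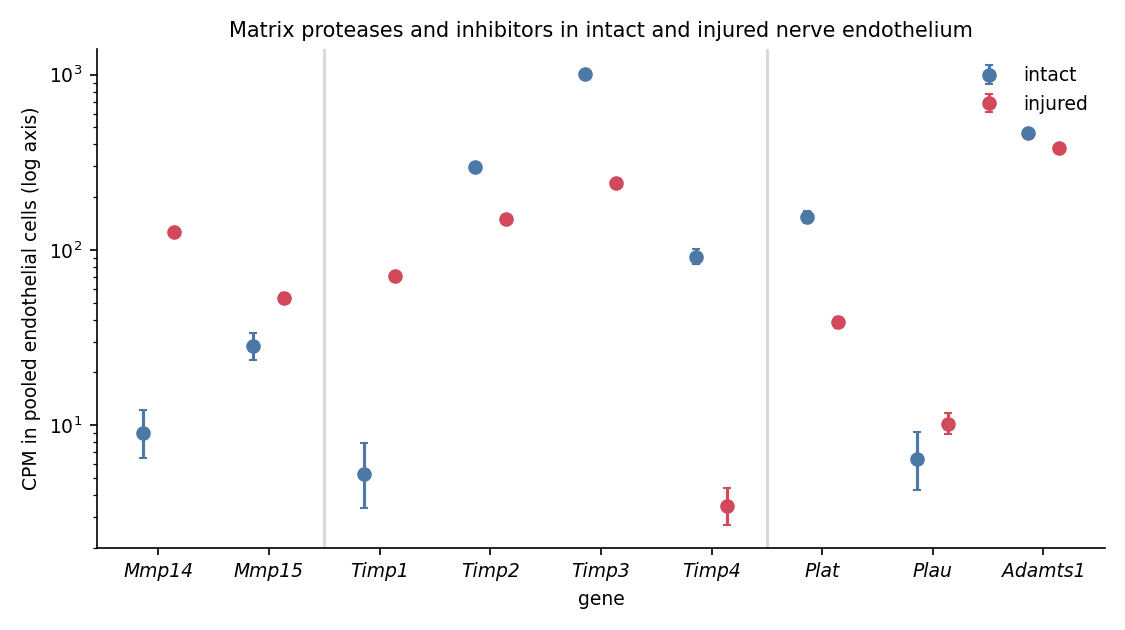
Level of each member in the pooled endothelial cells of the intact (blue) and injured (red) library, in CPM on a log axis, with exact 95% Poisson intervals. Mmp14 and Timp1 sit about a decade higher in the injured library, and Timp4, Timp3 and Plat sit lower there. The 3 blocks are membrane metalloproteinases, TIMPs, and plasminogen activators with Adamts1.

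Of the membrane-type proteases, Mmp14 had 41 UMIs in the intact and 2515 in the injured library. These are levels of 9.03 CPM (6.48 to 12.2) and 126 CPM (121 to 131), a ratio of 13.9 (10.2 to 19.5) and a log2 ratio of 3.22. Mmp15, a close relative of Mmp14, had 128 UMIs at 28.2 CPM (23.5 to 33.5) in the intact and 1069 UMIs at 53.5 CPM (50.3 to 56.8) in the injured library. Its ratio of 1.90 (1.58 to 2.30) was beyond counting error but short of 2-fold.

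The 4 TIMPs did not move together. Timp1, a soluble inhibitor of many MMPs, had 24 UMIs at 5.28 CPM (3.39 to 7.86) in the intact and 1421 UMIs at 71.1 CPM (67.4 to 74.9) in the injured library, a ratio of 13.5 (9.01 to 21.1). It lies on the X chromosome, and Xist, the non-coding RNA of the inactive X, was at 282 CPM in the intact and 939 CPM in the injured cells. The labels used here do not give the sex of the animals, and its part in the level of Timp1 was not tested.
Timp2 had 1345 UMIs at 296 CPM (280 to 312) and 2982 UMIs at 149 CPM (144 to 155). That is 1.98-fold lower (1.86 to 2.12) after injury, with a log2 ratio of -0.97 that stopped just short of the 2-fold rule.
Timp3 had 4577 UMIs at 1008 CPM (979 to 1037) in the intact library and 4803 UMIs at 240.3 CPM (234 to 247) in the injured one, 4.19-fold lower (4.03 to 4.37). Timp4, an inhibitor with a narrow tissue range, was lower too. It had 415 UMIs at 91.4 CPM (82.8 to 101) in the intact and 69 UMIs at 3.45 CPM (2.69 to 4.37) in the injured library, 26.5-fold lower (20.5 to 34.7).

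Plat had 700 UMIs at 154 CPM (143 to 166) in the intact and 774 UMIs at 38.7 CPM (36.0 to 41.5) in the injured library, 3.98-fold lower (3.59 to 4.41). Over all barcodes, fibroblast-like cells included, its log2 ratio was -0.57 in place of -1.86. Plau had 29 UMIs at 6.38 CPM and 204 UMIs at 10.2 CPM, a ratio of 1.60 (1.08 to 2.45) at levels too low for the rule of size. Adamts1, which cleaves versican and other proteoglycans, had 2112 UMIs at 465 CPM (445 to 485) and 7584 UMIs at 379 CPM (371 to 388). It was 1.23-fold lower (1.17 to 1.29) after injury, inside the 2-fold rule, and its log2 ratio turned from -0.29 to 0.17 when only classes with 20 cells in both libraries were pooled.

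The libraries also differed in the classes they held, so each member was read within classes. In this text a class keeps the name of the authors' table, whose suffixes PV+ and PV- are not explained in the sources used here. Classes with at least 20 cells in both libraries were EC_ART (91 intact and 144 injured cells), EC_BAR (181 and 36), EC_CAP-PV- (128 and 76), EC_VEN-PV+ (213 and 362) and EC_VEN-PV- (44 and 121). EC_IMMAT, EC_PROLIF and EC_TIP held 4, 11 and 4 intact cells and 260, 162 and 100 injured ones, and EC_CAP-PV+ held 42 and 13. In EC_IMMAT, EC_PROLIF and EC_TIP, a further 48, 27 and 17 intact cells had been left out as the shallower copy of a shared barcode. Arterial, barrier, capillary and venous markers were among the 10 leading genes of EC_ART, EC_BAR, EC_CAP-PV- and EC_VEN-PV+ in both libraries. The venous markers of EC_VEN-PV- summed to 2054 CPM in the intact library, below the 2667 CPM of its other endothelial cells, and haemoglobin genes led that class, so its label was not borne out there. Between the libraries its venous markers went from 2054 to 6172 CPM and its barrier markers from 6371 to 833 CPM, so the cells under this label were unlike, and the values of members in EC_VEN-PV- compare unlike cells. The barrier markers of EC_BAR went from 9384 to 3692 CPM and the capillary markers of EC_CAP-PV- from 9536 to 5586 CPM. Arterial markers of EC_ART, at 2682 and 2703 CPM, and venous markers of EC_VEN-PV+, at 6610 and 6121 CPM, were closer. Among the leading genes of injured EC_BAR were the interferon-induced Ifit1, Ifit2 and Rsad2. Among those of intact EC_BAR was Acta2, of smooth muscle. The 8 pericyte and smooth muscle markers went from 1454 CPM in intact EC_BAR, with all 8 present, to 163 CPM in injured EC_BAR, with 5 at 0 (Pdgfrb, Kcnj8, Abcc9, Cspg4 and Myh11). The part of these barrier, pericyte and smooth muscle differences in the values of Plat, Timp3 and Adamts1 in EC_BAR was not tested.

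**Figure D2:**
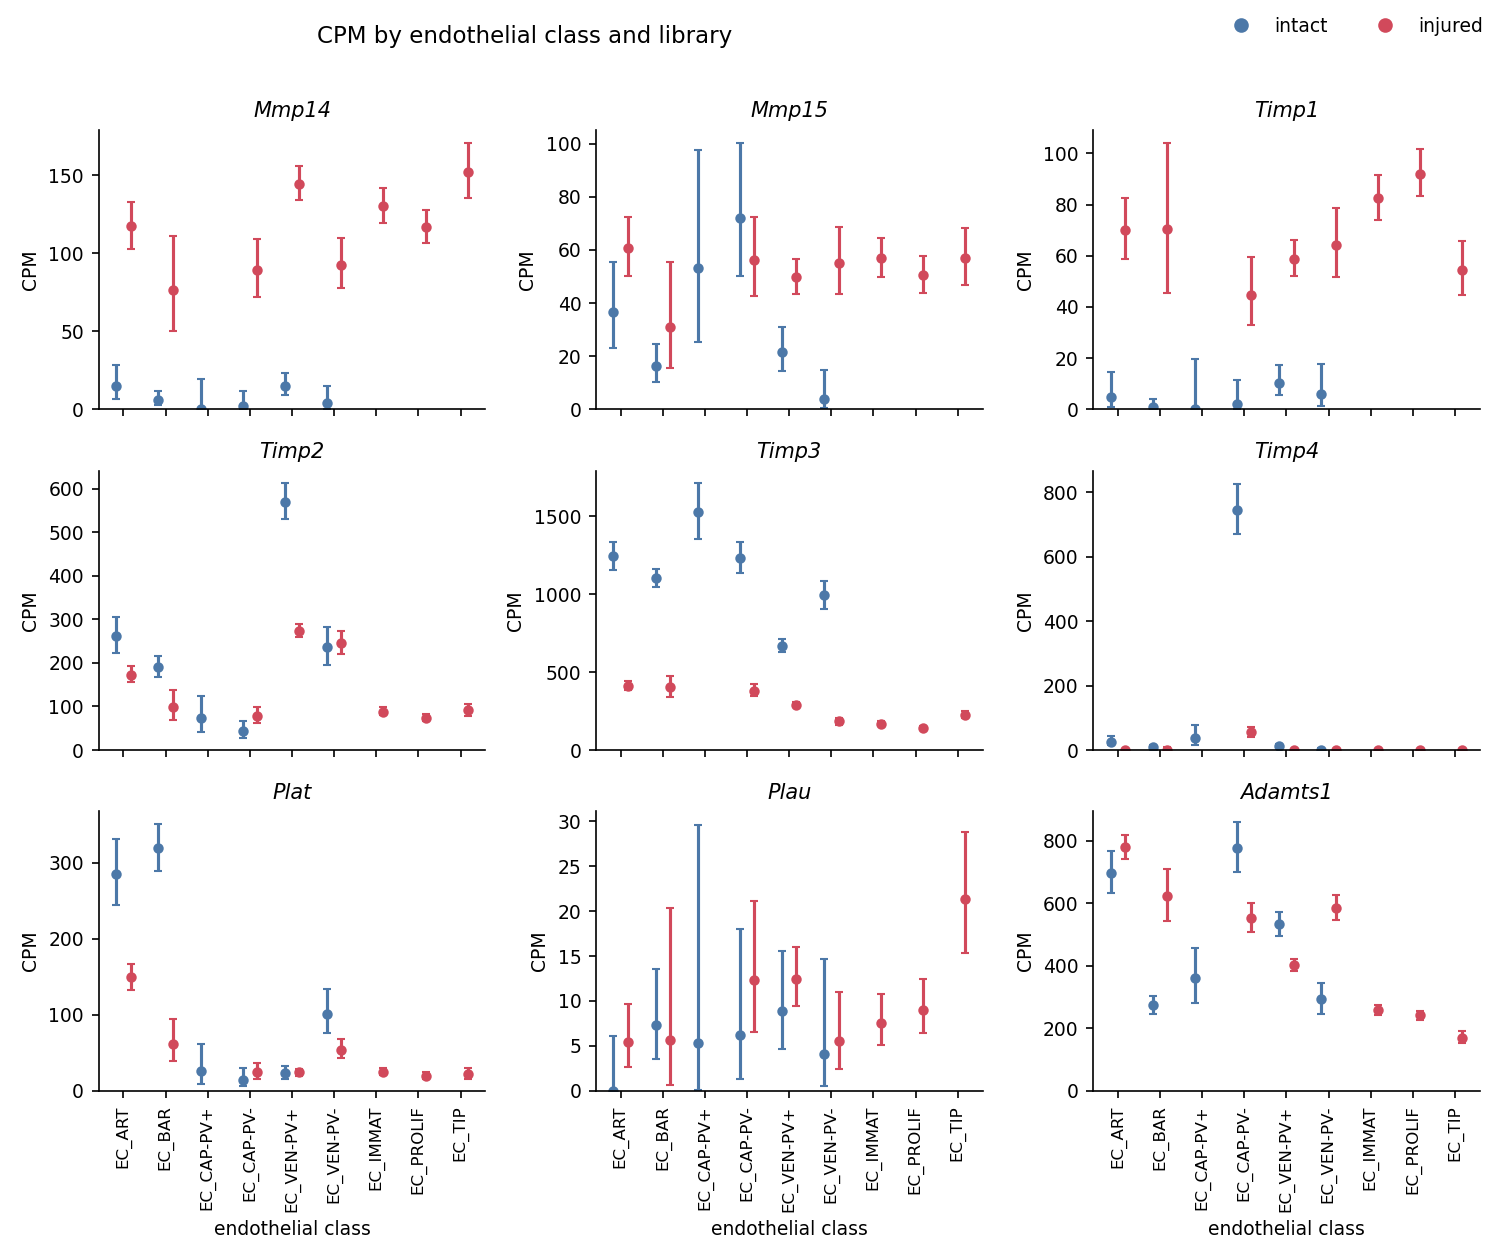
Level of each member in every endothelial class with at least 20 cells in a library, in CPM with exact 95% Poisson intervals, intact in blue and injured in red. Mmp14 and Timp1 are higher and Timp3 is lower in all 5 classes present in both libraries, and Timp4 stands out in EC_CAP-PV- alone.

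Of 8 members measured in EC_ART, 2 were at least 2-fold higher and 2 lower, against 6.07% and 7.31% of all genes measured in that class. EC_BAR had 3 higher and 2 lower (background 6.29% and 6.87%), EC_CAP-PV- 2 and 2 (5.76% and 9.21%), EC_VEN-PV+ 3 and 2 (3.77% and 4.61%) and EC_VEN-PV- 3 and 1 (7.91% and 6.34%). Across the 5 classes this made 13 pairs of member and class that were higher and 9 that were lower.

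Mmp14 was higher in all 5 classes. In EC_ART it went from 9 to 238 UMIs, 14.9 to 117 CPM, and in EC_VEN-PV+ from 20 to 687 UMIs, 14.9 to 145 CPM, ratios of 7.84 (4.06 to 17.4) and 9.72 (6.24 to 16.0). In EC_BAR it went from 5.88 to 76.1 CPM, a ratio of 12.9 (5.72 to 33.0). The intact levels of EC_CAP-PV- and EC_VEN-PV- rested on 1 and 2 UMIs, so their ratios of 43.4 (7.61 to 1733) and 22.8 (6.19 to 190) were poorly bounded. Among injured classes the level ran from 76.1 CPM (50.1 to 111) in EC_BAR to 152 CPM (135 to 170) in EC_TIP, a class named for the tip cells that lead vessel sprouts. EC_TIP and the next class, EC_VEN-PV+ at 145 CPM (134 to 156), overlapped in their intervals, as did each neighbouring pair in that order, and after thinning EC_PROLIF was highest.

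Mmp15 passed the rule in 2 of the 5 classes. It was higher in EC_VEN-PV+, from 21.6 to 49.6 CPM with a ratio of 2.30 (1.56 to 3.51), and in EC_VEN-PV-, from 4.06 CPM on 2 UMIs to 55.0 CPM. In EC_CAP-PV- it was at 72.0 and 56.1 CPM, a ratio of 0.779 (0.504 to 1.22) that counting error alone allows. The intact levels ran from 4.06 CPM in EC_VEN-PV- to 72.0 CPM in EC_CAP-PV-. The injured ones were closer, from 31.0 CPM in EC_BAR to 60.5 CPM in EC_ART, and every neighbouring pair overlapped.

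Timp1 was higher in all 5 classes as well. From 14 intact UMIs, EC_VEN-PV+ went from 10.4 to 58.7 CPM, a ratio of 5.64 (3.30 to 10.4). The other 4 classes had 1 to 3 intact UMIs each, with ratios of 14.04 (4.71 to 68.9) in EC_ART, 95.9 (15.7 to 3937) in EC_BAR, 21.7 (3.71 to 875) in EC_CAP-PV- and 10.5 (3.49 to 51.9) in EC_VEN-PV-. These intervals are wide, with lower bounds from 3.49 to 15.7. In the injured library EC_PROLIF, a class of dividing cells, was highest at 92.1 CPM (83.1 to 102), followed by EC_IMMAT at 82.4 CPM (73.9 to 91.7) with an overlapping interval. EC_CAP-PV- was lowest at 44.7 CPM (32.8 to 59.4).

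Timp2 took different directions in different classes. In EC_VEN-PV+, its highest class in both libraries, it went from 767 UMIs at 570.3 CPM to 1302 UMIs at 274 CPM, 2.08-fold lower (1.90 to 2.28), and its log2 ratio after thinning was -0.92, short of 2-fold. EC_ART went from 262 to 173 CPM and EC_BAR from 191 to 98.6 CPM, 1.51-fold and 1.94-fold lower. After thinning EC_BAR passed the rule for Timp2, at 176 and 50.5 CPM, a ratio of 0.286. Unthinned, the injured level there rested on 35 UMIs in 36 cells. Thinning left fewer still, so this call is poorly bounded. EC_VEN-PV- was at 236 and 246 CPM, a ratio of 1.04 (0.843 to 1.30). In EC_CAP-PV-, where it was lowest of the intact classes, it went from 21 UMIs at 43.2 CPM to 83 UMIs at 78.9 CPM, a ratio of 1.83 (1.12 to 3.10).

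Timp3 was lower in all 5 classes, on at least 143 UMIs in every class of both libraries. It went from 1241 to 413 CPM in EC_ART, from 1101 to 403 CPM in EC_BAR and from 1231 to 381 CPM in EC_CAP-PV-, 3.01-fold, 2.73-fold and 3.23-fold lower. EC_VEN-PV+ went from 668 to 289 CPM, 2.31-fold lower (2.12 to 2.51), and EC_VEN-PV- from 991 to 183 CPM, 5.41-fold lower (4.65 to 6.31). The lowest injured levels were in classes with few intact cells kept, EC_PROLIF at 143 CPM (132 to 155) and EC_IMMAT at 170 CPM (158 to 183). No injured class of 20 cells or more reached the lowest intact level, 668 CPM in EC_VEN-PV+.

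Timp4 came mostly from 1 class. EC_CAP-PV- held 10.7% of intact endothelial UMIs but 87.2% of those of Timp4, and in the injured library 5.26% and 84.1%. Within that class Timp4 went from 362 UMIs at 745 CPM (670 to 826) to 58 UMIs at 55.1 CPM (41.9 to 71.3), 13.5-fold lower (10.2 to 18.2). Timp4 was itself among the 10 leading genes of intact EC_CAP-PV-, so its high level there describes the class and is no independent finding. Both the share of UMIs from such cells and the level of Timp4 within them were lower in the injured library.
A UMI of Timp4 was seen in 79 of 128 intact EC_CAP-PV- cells (61.7%) and in 17 of 76 injured ones (22.4%), although the injured cells were deeper. After each cell was thinned at random to 3000 UMIs, the shares were 42 of 59 (71.2%) and 10 of 71 (14.1%). The 8 injured cells with most Timp4 held 45 of the 58 UMIs (77.6%), and 18 of the 58 came from 4 cells whose barcode also occurred in the intact library. Without these 4 cells, 40 UMIs remained in 72 cells. Of the other classes, EC_ART went from 16 UMIs at 26.6 CPM to 2 UMIs at 0.984 CPM, and EC_VEN-PV+ from 16 to 4 UMIs, below the minimum level.

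Plat came mostly from 2 classes in the intact nerve. EC_BAR held 62.0% of its UMIs and 30.0% of all endothelial UMIs, and EC_ART 24.6% and 13.3%. In EC_BAR it went from 434 UMIs at 319 CPM to 22 UMIs at 62.0 CPM, 5.14-fold lower (3.35 to 8.29), past the rule. EC_ART, at 285 and 149 CPM, was 1.91-fold lower (1.58 to 2.32), and EC_VEN-PV-, at 102 and 54.3 CPM, 1.87-fold lower (1.28 to 2.70). After thinning, EC_VEN-PV- also passed the rule for Plat, at 90.9 and 37.4 CPM. EC_VEN-PV+ was at 23.0 and 24.2 CPM and EC_CAP-PV- at 14.4 and 24.7 CPM, both with intervals of the ratio that include 1. In the injured library EC_ART held 39.1% of the Plat UMIs and 10.2% of all UMIs, EC_BAR held 2.84% and 1.78%, and EC_ART was the highest class at 149 CPM (133 to 167), above EC_BAR without overlap. The 36 injured EC_BAR cells are few, and their barrier markers were lower than in intact EC_BAR. A further 47 injured cells of that class had been left out as the shallower copy of a shared barcode.
Plau was too low to be measured in all classes but EC_VEN-PV+, where it was at 8.92 and 12.4 CPM. In injured EC_TIP it was at 21.3 CPM (15.4 to 28.8), an interval that overlapped that of injured EC_VEN-PV+ (9.45 to 16.0). After thinning, EC_CAP-PV- was the highest injured class for Plau, at 28.2 CPM. Unthinned it was at 12.4 CPM on 13 UMIs (6.58 to 21.1), so this order rests on very few UMIs.

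Adamts1 was spread over the classes and differed in direction between them. It was higher in EC_BAR, from 372 UMIs at 273 CPM to 221 UMIs at 623 CPM, a ratio of 2.28 (1.92 to 2.70), and its log2 ratio after thinning was 0.89, short of 2-fold. EC_VEN-PV- went from 293 to 585 CPM, a ratio of 2.00 (1.67 to 2.40) that fell just under the rule with 5 CPM added. EC_ART was at 697 and 780.1 CPM, a ratio of 1.12 (1.00 to 1.25) that turned to 0.945 after thinning. By contrast, EC_CAP-PV- at 776 and 553 CPM and EC_VEN-PV+ at 532 and 402 CPM had ratios of 0.713 (0.625 to 0.814) and 0.756 (0.693 to 0.825). The injured classes with few intact cells kept were lowest, with EC_IMMAT at 259 CPM, EC_PROLIF at 241 CPM and EC_TIP at 170.5 CPM (153 to 190).
Tissue digestion is known to induce early response genes. The 15 of them listed summed to 22448 CPM in intact and 8168 CPM in injured endothelial cells, and 12 of them were at least 2-fold lower in the injured library, with the transcription factor Egr1 at 1918 and 338 CPM. Their sum was lower in the injured library in each of the 5 classes, both where Adamts1 was higher, as in EC_BAR (24477 and 12780 CPM), and where it was lower, as in EC_CAP-PV- (21749 and 11885 CPM) and EC_VEN-PV+ (17830 and 8779 CPM). Their part in the level of Adamts1 was not tested.

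Cell by cell, shares were compared after thinning, because injured cells were deeper. Thinning kept 482 intact and 1223 injured endothelial cells and left out 236 and 51 with under 3000 UMIs. Mmp14 was seen in 17 intact cells (3.53%, 2.07 to 5.59) and 359 injured ones (29.4%, 26.8 to 32.0), and Timp1 in 8 (1.66%) and 212 (17.3%). Mmp15 was seen in 7.68% and 16.3% of cells.
The share with Timp3 was 88.2% (84.95 to 90.9) in intact and 42.5% (39.7 to 45.3) in injured cells, so that the inhibitor seen in most intact cells was missed in most injured ones at this depth. Timp2 was in 50.8% and 34.3%, Timp4 in 12.03% and 0.981%, and Plat in 22.2% and 9.57% of cells. Adamts1 was in 47.1% and 52.6% and Plau in 1.45% and 3.11%.
Unthinned, the shares with Mmp14 were 5.01% and 69.7%, with Timp1 3.20% and 52.0% and with Timp4 15.9% and 2.04%. Those with Plat were 28.7% and 28.6%, so its lower level in the injured library was not visible in the unthinned shares.

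**Figure D3:**
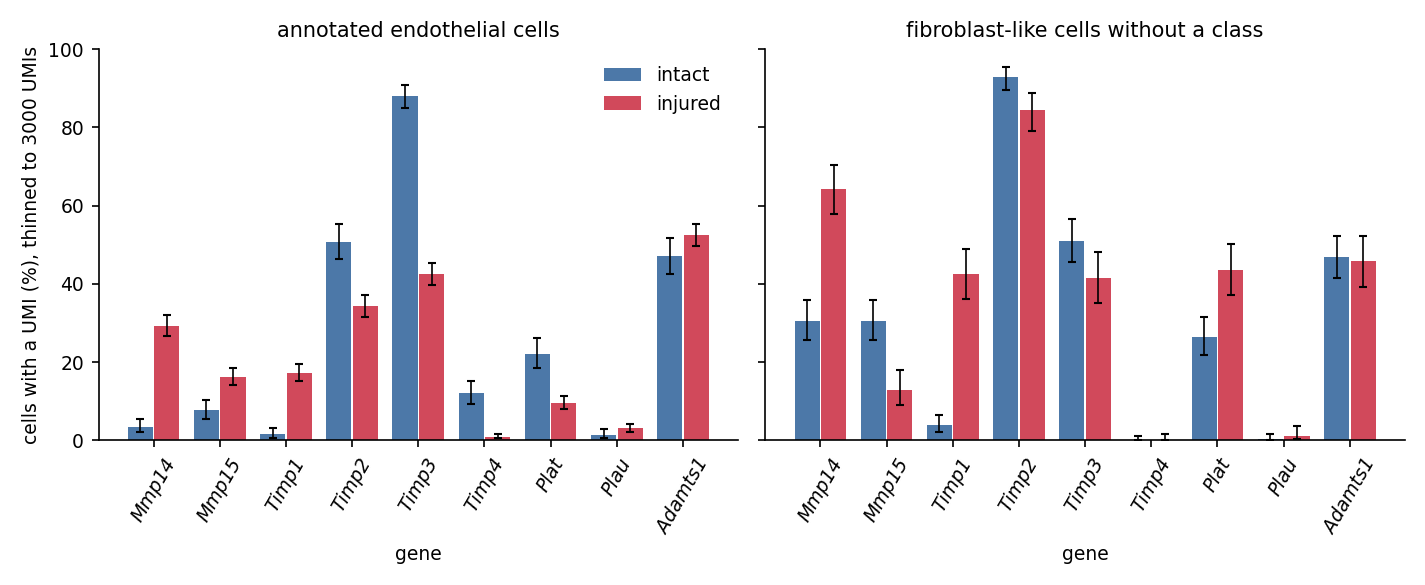
Percent of cells with at least 1 UMI of each member after thinning to 3000 UMIs per cell, with exact 95% intervals, in annotated endothelial cells (left) and in fibroblast-like cells without a class (right). In endothelial cells Mmp14 goes from 3.53% to 29.4% and Timp3 from 88.2% to 42.5%, and Timp4 has no UMI in the thinned fibroblast-like cells of either library.

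The TIMPs were also read in single cells with and without Mmp14. TIMP2 and TIMP3 inhibit MMP14 well, and TIMP1 does so poorly. Among the 359 injured cells with Mmp14 after thinning, 18.4% had Timp1, against 16.9% of the 864 without. Timp2 was in 38.2% and 32.8%, Timp3 in 41.5% and 42.9%, and Timp4 in 0.279% and 1.27%. Only 17 intact cells had Mmp14, of which 12 had Timp2 and none had Timp1. Cells of 1 library are not replicates, so these shares are a description.

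Cells outside the endothelial classes also held these genes. INTERMEDIATE, the class not named as endothelial, had Timp3 at 942 and 412 CPM in 46 intact and 88 injured cells. Cells with no class that were neither fibroblast-like nor leukocyte-like numbered 316 and 255. Their Timp3 was at 2658 and 486 CPM and their Timp4 at 97.5 CPM on 136 UMIs and 8.32 CPM on 24. Their pan-endothelial markers summed to 3246 and 3723 CPM. Fibroblast-like cells without a class, 402 in the intact and 254 in the injured library, had Mmp14 at 115 and 446 CPM, Timp1 at 16.0 and 265 CPM and Plat at 83.9 and 248 CPM. Mmp14 and Timp1 were thus higher in the injured library there too, while Plat was higher in fibroblast-like and lower in endothelial cells. Timp3 was at 649 and 412 CPM and Timp2 at 1272 and 729 CPM. Timp4 had a UMI in 2 of 402 intact and 1 of 254 injured fibroblast-like cells. After thinning it had one in 0 of 337 and 0 of 238, which allows up to 0.890% and 1.26% of cells with a UMI at that depth and sets no limit on cells that express the gene.
The 8 fibroblast markers, all present, summed to 67.1 CPM in intact and 38.7 CPM in injured endothelial cells. In the fibroblast-like cells they summed to 17486 and 29402 CPM. At least 2 markers of fibroblasts, pericytes and smooth muscle, or leukocytes were seen in 229 intact (31.9%) and 561 injured (44.0%) endothelial cells. These shares were not thinned, and injured cells were deeper. For every 100 fibroblast marker UMIs, injured endothelial cells had 325 of Mmp14 and 184 of Timp1, and injured fibroblast-like cells had 1.52 and 0.902.
In 20 intact and 7 injured leukocyte-like cells, no UMI of any member was seen but for Mmp14 in 1 intact cell and Timp2 in 3 intact and 1 injured cells. So few and shallow cells, with medians of 2264 and 1467 UMIs, allow up to 15.0% and 42.9% of cells with a UMI where the count is 0, and set no limit on cells that express a gene. Markers of pericytes and smooth muscle, all 8 present and led by Tagln, summed to 1061 CPM in intact and 219.5 CPM in injured endothelial cells, and their part in the level of Timp3 was not tested.

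Among the other genes of matrix breakdown, 82 in 5 lists, 33 were measured in pooled endothelium. Of these, 10 were higher, 4 lower and 19 between, against 4.79% and 6.82% of all measured genes that were higher and lower. The lists too were chosen with earlier results of these data known, so the counts are a description. Of 17 further MMPs only Mmp2, the gelatinase that MMP14 activates, was measured, at 9.91 and 26.6 CPM, a ratio of 2.69 (1.98 to 3.73). Mmp9 had 0 UMIs in both.
Of 10 measured ADAMTS and ADAM proteases 3 were higher. Adam12 went from 1.98 to 23.3 CPM, Adamts7 from 1.54 to 19.6 CPM and Adamts4, an aggrecanase, from 37.2 to 89.1 CPM, a ratio of 2.40. The sheddase Adam10, a target of TIMP3, was at 176 and 177 CPM.

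In the plasminogen system 1 of 5 measured genes passed the rule, the thrombin receptor Thbd, which was 3.004-fold lower at 343 and 114 CPM. Plaur, the receptor of the urokinase that Plau encodes, was at 34.1 and 37.4 CPM.
Of 11 measured activators, binding proteins and other inhibitors, 4 were higher and 3 lower. Thbs1 (44.3 and 164 CPM), Tfpi (24.4 and 81.5 CPM) and the collagen chaperone Serpinh1 (217 and 653 CPM) were 3.70, 3.33 and 3.01 times their intact level. The fourth, Sparc, a collagen-binding matrix protein, was at 1440 and 3472 CPM. Spock2, a secreted proteoglycan, went from 817 to 27.0 CPM and the cathepsin inhibitor Cst3 from 2324 to 393 CPM. Bsg, an inducer of MMPs, went from 1830 to 490.2 CPM. These are pooled values, not read within classes. Spock2 was among the leading genes of EC_BAR in both libraries, and EC_BAR held 30.0% of intact but 1.78% of injured endothelial UMIs. The part of class shares in these values was not tested. Of 6 other matrix-degrading enzymes, the cathepsins Ctsl (251 and 659 CPM) and Ctsb (186 and 444 CPM) were higher and none was lower.

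**Figure D4:**
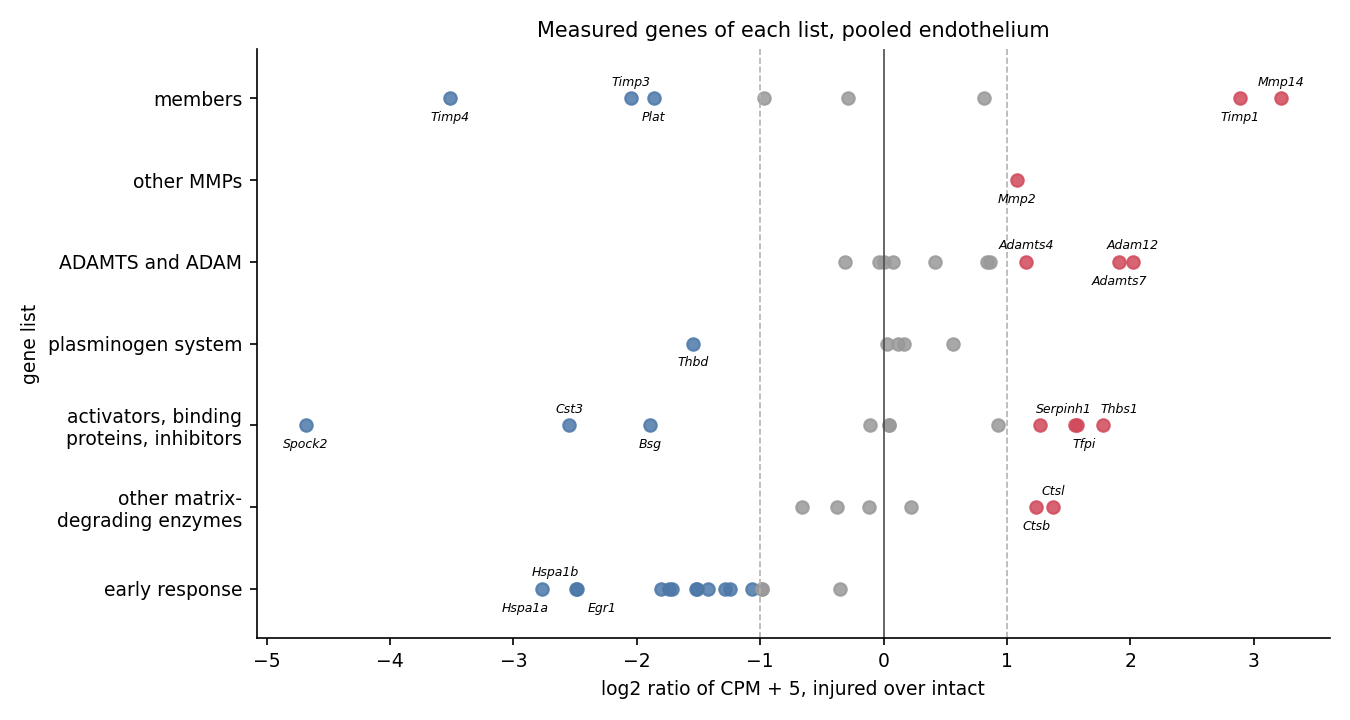
Log2 ratio of CPM (5 CPM added), injured over intact, of every measured gene of the members, the other protease lists and the early response list, in pooled endothelial cells. Dashed lines mark 2-fold, red points are higher, blue points lower and grey points between. The members spread from -3.51 (Timp4) to 3.22 (Mmp14), and 12 of 15 early response genes lie at or below the lower line.

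Likeness to each member was read as Pearson's r of log2 CPM over the 14 profiles of class and library, among 4994 genes. The profiles share libraries, so a gene that differs between libraries resembles any other that does, and r is given without a test. Timp4 was most like Lnx1 (0.97), Aqp7 (0.96) and Ushbp1 (0.93), and Plat most like Degs2 (0.95), Bmx (0.95) and Tbx1 (0.93). Mmp14 was most like Top1, Paip2 and Sec11a and Timp1 most like Erp29, Gm9794 and Slc25a3, each at 0.97. Timp3 resembled Clic5 (0.96), Dbp (0.95) and Tmbim6 (0.95). Lower values were found for the nearest genes of Mmp15 (Leprotl1, 0.91), Timp2 (Foxc1, 0.87) and Adamts1 (Cmip, 0.87), and Plau was too low to be compared.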

How the data were processed

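Single cells of 2 libraries, 1 intact and 1 injured, were read from the matrices the authors deposited, which hold raw counts of UMIs per gene and barcode. They name Cell Ranger 3.0.2, per the file headers. The submitters' processing notes also list mm10 and GRCm38 as builds, with Seurat 4.0.1 and Cell Ranger 6.1.2. Classes came from the authors' deposited cell table, and the sources used here do not state how its cells were filtered or classed. The 1618 and 2023 barcodes held 9401203 and 27157892 UMIs. No doublet caller was run, and an alternative left out the deepest 5% of cells.

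UMIs were summed per gene and class and divided by the summed total (CPM). Intervals were exact Poisson for CPM, conditional binomial for ratios and Clopper-Pearson for shares (95%), and a count of 0 was given a limit of 3 counts. Log2 ratios had 5 CPM added, the mean level had to reach 10 CPM and the ratio 2-fold, and classes needed 20 cells. Thinning drew 3000 UMIs per cell without replacement (seed 1). Fibroblast-like cells were unclassed, had 1000 or more UMIs and 4 or more genes of the fibroblast list, whose UMIs outnumbered those of the pan-endothelial list. The members and all lists were chosen with earlier results of these data known. All members are named, with up to 3 genes per list and direction by size of the log2 ratio among called genes, and the 3 genes most like each member of at least 50 CPM. Mmp9, Plaur, Adam10 and Sparc were named after their values were seen. Positions came from GENCODE, where 50604 (94.8%) of 53379 identifiers had the same version, and promoters from RefSeq, which held 7 of 9 members. The computation was tested on simulated data and used Python 3.11, numpy 2.4.6, scipy 1.17.1 and pandas 2.3.3, with TMM factors from edgeR 4.0.16 in R 4.3.3.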

Additional observations from a re-analysis of the deposited data

Results flagged for a closer look

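Timp2 was lower after injury in some endothelial classes and higher in 1. Its ratio of injured to intact CPM was 0.661 in EC_ART, 0.516 in EC_BAR and 0.480 in EC_VEN-PV+, and 1.83 in EC_CAP-PV-, each with a counting interval that leaves out 1. Adamts1 was higher in 3 classes, with ratios of 1.12 in EC_ART, 2.28 in EC_BAR and 2.00 in EC_VEN-PV-, and lower in 2, with ratios of 0.713 in EC_CAP-PV- and 0.756 in EC_VEN-PV+. After thinning its ratio in EC_ART was 0.945, so that only EC_BAR and EC_VEN-PV- were higher. Of these, EC_VEN-PV- compares unlike cells, as said above, and EC_BAR held only 36 injured cells, with lower barrier markers than the intact ones. With 1 library per condition the difference between classes was not tested for either gene.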

How the results depend on the processing

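In all 17 alternatives for the pooled cells, Mmp14, Timp1 and Plau kept a log2 ratio above 0. Timp2, Timp3, Timp4 and Plat kept one below 0. Adding 1 or 20 CPM in place of 5 cannot change a sign, so these settings bear on size only. Mmp14 ranged from 1.59 to 3.66, Timp1 from 1.85 to 3.52, Timp2 from -1.49 to -0.47, Timp3 from -2.13 to -1.63, Timp4 from -4.37 to -1.69 and Plat from -2.18 to -0.57. Mmp15 turned to -0.41 when all barcodes were taken, which brings in the fibroblast-like cells, and Adamts1 to 0.19 when the 5 classes were weighted equally and to 0.17 when only these 5 were pooled, a setting added after seeing the data. The members called higher were 1 at a minimum mean of 50 CPM, which leaves Timp1 unmeasured, and those called lower were 2, without Timp4. Mmp15 was called higher with mitochondrial shares under 5% (1.09), Timp2 was called lower with the median set to 0 and with all barcodes, and Plat was not called with all barcodes. Without EC_CAP-PV-, also added later, Timp4 was not measured and both Timp2 and Mmp15 were called. The pairs of member and class called higher were 7 when classes needed 50 cells, which leaves 3 classes, and the pairs called lower were 15 when the shallower cells of shared barcodes were kept, which makes 8 classes. After thinning, Adamts1 was at 0.89 in EC_BAR, short of 2-fold, at 1.82 in EC_VEN-PV- and at -0.08 in EC_ART. TMM scaling moved the median of all genes from 0.04 to 0.15. No paired analysis was possible because each condition was 1 library. Depth limits the intact Mmp14 and Timp1 within classes, at 1 to 20 UMIs each.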
